A study of Mus musculus with 23 samples.

Results

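Expression of 35 genes of fatty acid synthesis, triglyceride assembly, lipid droplets and fatty acid uptake was followed in mouse liver, out of 18193 genes with a probe set of their own. The genes were listed by name and grouped by step. Each was read from the probe set, among those assigned to that gene alone, with the highest mean over all arrays. All 35 were measured, and 33 passed a filter on dim signals and were tested among 13826 genes. The 4 regulators were Srebf1, Mlxipl, Pparg and Thrsp. The 8 synthesis genes were Pklr, Slc25a1, Acly, Acss2, Acaca, Acacb, Fasn and Me1. Elovl2, Elovl5, Elovl6, Scd1, Fads1 and Fads2 made up the 6 genes of elongation and desaturation. The 8 genes of triglyceride assembly were Gpam, Agpat2, Agpat3, Lpin1, Lpin2, Dgat1, Dgat2 and Mogat1. The 6 droplet genes were Pnpla3, Plin2, Plin4, Plin5, Cidea and Cidec, and the 3 uptake genes Cd36, Fabp4 and Lpl.

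The study crossed a hepatocyte deletion of Ctnnb1, the gene of beta-catenin, with dietary phenobarbital, a barbiturate that activates the constitutive androstane receptor and promotes liver tumours in mice. Total liver RNA of 23 samples from male C3H mice was hybridised to Affymetrix arrays, 1 array per sample: wild-type controls (n = 5), wild type on 0.05% phenobarbital in the diet (n = 4), knockout controls (n = 7) and knockout on the same phenobarbital diet (n = 7), each for 12 weeks. Controls ate the diet without phenobarbital, and a separate label names water as their vehicle. The knockout combined Cre under the albumin promoter with loxP sites around exons 3 and 6 of Ctnnb1, so non-hepatocytes of these livers keep the gene, and ages are not given in the sources used here. No label states whether numbered replicates came from different animals. The p-values therefore rest on sample-to-sample spread, part of which may be technical. All levels below are log2 signals of 1 probe set, which can be compared between arrays but not between genes, and the number of arrays limits their precision.

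De novo lipogenesis turns citrate and acetate into fatty acids. Acly and Acss2 supply acetyl-CoA, Acaca and Acacb carboxylate it, Fasn builds palmitate, and Elovl and Fads enzymes and Scd1 lengthen and desaturate the product. Acyltransferases, lipins and Dgat enzymes then assemble triglyceride, which perilipins and Cide proteins hold in droplets. In liver, insulin acts on the pathway through SREBP-1c, encoded by Srebf1, and glucose through ChREBP, encoded by Mlxipl. Thrsp, which encodes Spot 14, and Pklr, which encodes liver pyruvate kinase, are classical carbohydrate-responsive genes.

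Label checks came first. The Ctnnb1 probe set read 12.20 ± 0.024 in wild-type controls and 12.25 ± 0.11 in knockout controls (log2 mean ± SD), and its position relative to the deleted exons is not given in the sources used here, so it checks nothing. Glul, which depends on beta-catenin, was 12.32 ± 0.13 in untreated and 11.66 ± 0.10 in treated wild type, and 8.81 ± 0.65 and 8.56 ± 0.57 in knockout. The Wnt target Axin2 ranged from 6.15 to 6.75 in wild type and from 5.40 to 5.97 in knockout. Cyp2b10, the classical phenobarbital target, was 5.68 ± 0.39 and 12.64 ± 0.048 in wild type and 9.75 ± 0.98 and 12.76 ± 0.17 in knockout. All 5 measured hepatocyte markers were above the filter level in every array.

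Some knockout control arrays stood apart. Limma gave the lowest weights to replicates 2 (0.54), 6 (0.324) and 7 (0.21). In replicates 1, 4 and 7 the adipocyte marker Adipoq read 4.85, 7.17 and 5.81, above the mean filter level of 4.56, and every other array of the series lay between 2.92 and 3.81. Of 6 adipocyte markers, 4 were measured, with summed levels of 16.40 to 21.95 in knockout controls, 17.13 to 17.64 in wild-type controls, 17.15 to 17.51 in wild type with phenobarbital and 16.71 to 17.56 in knockout with phenobarbital. Leptin (Lep) was dim in all groups, with means from 3.17 to 3.34. The summed level of 8 macrophage markers was 55.71 to 61.98 in untreated and 54.11 to 56.79 in treated wild type, and 62.26 to 77.82 and 62.02 to 74.28 in knockout. Within knockout controls it was 62.26 to 63.53 in replicates 3, 4 and 5 and 72.32 to 77.82 in the other 4. In whole liver, fewer cells of a type and less RNA per cell cannot be told apart.

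Upstream sequences holding the letters marked in capitals are shown for 3 of the 5 genes that rose with phenobarbital in wild type. They are the 250 bases before a RefSeq start in GRCm38.p6, 5′ to 3′ on the gene's strand, and 28 of the 35 genes had such a window. The Pnpla3 window runs past 84167776, the first base of the gene as given below, so it precedes a start downstream of that base. Capitals mark the carbohydrate response element in Pklr (letters searched: CACGNG and CNCGTG with 5 bases between them, a form ChREBP is known to bind) and CCAAT boxes on either strand in Thrsp and Pnpla3.
Pklr, chr3:89136373-89136622, + strand: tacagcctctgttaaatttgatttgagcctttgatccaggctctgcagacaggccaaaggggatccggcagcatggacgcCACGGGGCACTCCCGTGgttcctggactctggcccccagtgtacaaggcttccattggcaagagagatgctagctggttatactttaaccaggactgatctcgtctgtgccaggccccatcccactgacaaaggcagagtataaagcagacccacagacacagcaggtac
Thrsp, chr7:97417551-97417800, - strand: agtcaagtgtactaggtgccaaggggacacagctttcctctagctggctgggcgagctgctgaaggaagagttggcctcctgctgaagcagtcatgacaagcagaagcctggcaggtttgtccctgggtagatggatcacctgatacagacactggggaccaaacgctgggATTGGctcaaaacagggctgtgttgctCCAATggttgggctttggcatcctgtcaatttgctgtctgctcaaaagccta
Pnpla3, chr15:84167566-84167815, + strand: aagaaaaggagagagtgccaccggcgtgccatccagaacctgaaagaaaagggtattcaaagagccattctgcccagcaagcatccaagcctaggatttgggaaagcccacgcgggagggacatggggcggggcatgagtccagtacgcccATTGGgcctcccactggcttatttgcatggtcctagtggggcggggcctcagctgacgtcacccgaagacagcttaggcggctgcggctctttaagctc
The Pklr window precedes the more downstream of its 2 listed starts, and the match ran from base 170 to base 154 before the start. Among all 32851 windows 0.0396% held these letters on either strand, and of the 28 genes Pklr alone did. This window also holds a CCAAT box on the other strand, left in lower case. CCAAT was found in 20 of the 41 windows of these 28 genes (in 18 genes) and in 33.8% of all windows. The windows of Acaca and Elovl6 held none. The E-box CACGTG was found in 4 of the 41 windows, those of Elovl5, Lpin2, Mlxipl and Slc25a1 (6.02% of all windows). The sterol response element TCACNCCAC was found in 1 of them, of Mlxipl (1.05%), and the direct repeat of AGGTCA with 4 bases between in 0 (0.0152%). A match describes these letters only.

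Phenobarbital raised 5 of the 33 tested genes in wild-type liver and lowered 0. They were the regulator Thrsp, the synthesis genes Pklr and Acaca, the elongase Elovl6 and the droplet gene Pnpla3, with log2 rises from 0.49 to 2.03 (1.40-fold to 4.08-fold). Here and below, a change is one with a limma p under 0.05 after Benjamini-Hochberg adjustment across the 13826 genes. Among all genes 1.95% were called higher, 1.90% lower and 3.85% in either direction. The median change of the 33 genes was 0.126, against 0.00787 over all genes, and 22 of the 33 changes were positive. By limma, 11 of the 33 had an unadjusted p under 0.05 (33.3%, against 15.5% of all genes). Arrays of the 2 groups did not overlap for 10 of the 33, against 11.6% of all genes. Fits without 1 array called 315 to 664 of all genes. Without wild-type phenobarbital replicate 2 the count of the 33 was 3, since Acaca and Elovl6 no longer passed. It was 8 (24.2%) without knockout controls 2, 6 and 7, where 5.86% of all genes passed, and 8 when only wild-type arrays were fitted, where 6.72% did.

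**Figure D1:**
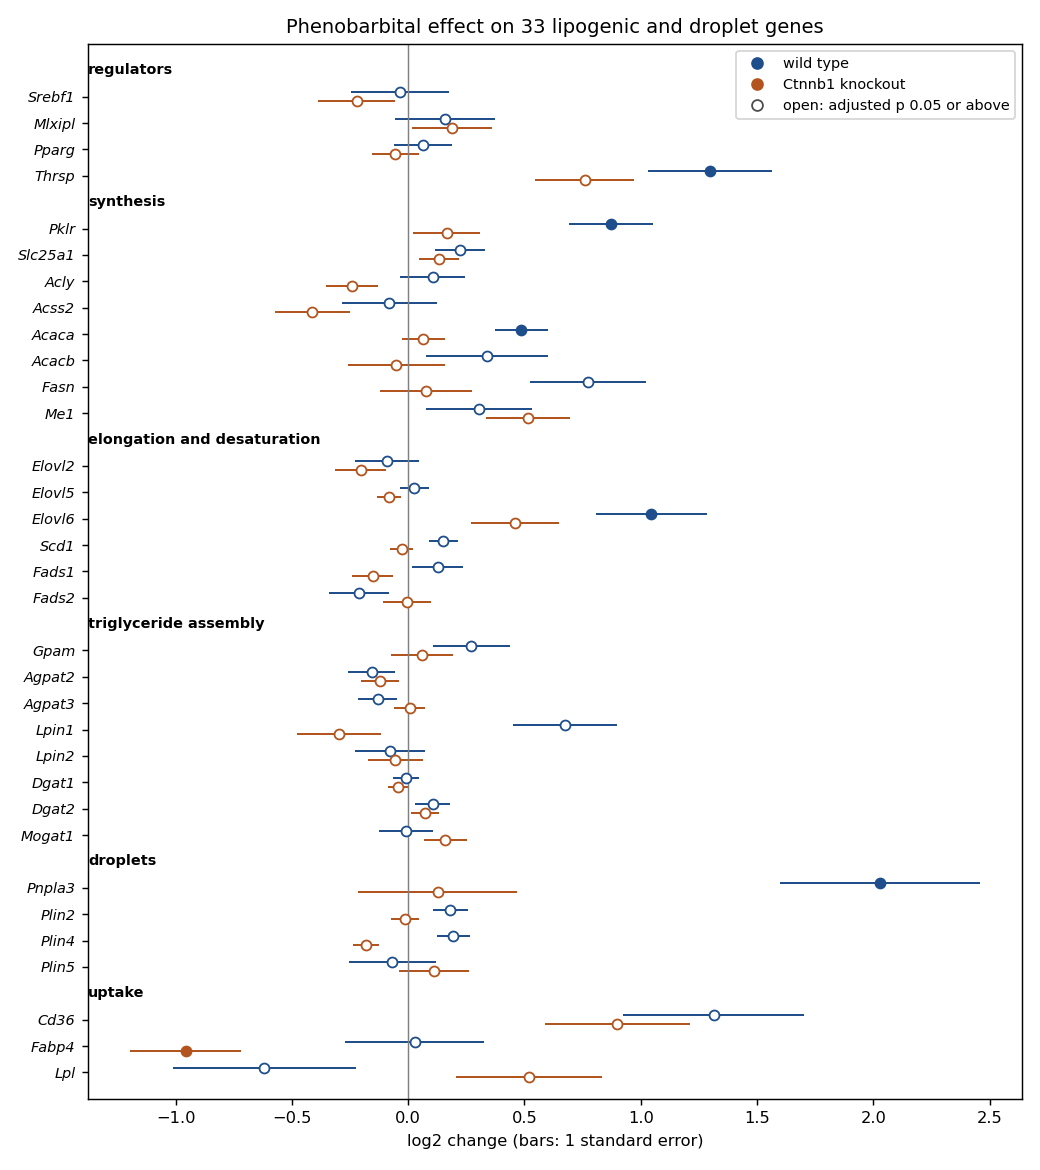
Log2 change with phenobarbital (x axis, bars 1 standard error) of 33 genes ordered by step, in wild type (blue) and Ctnnb1 knockout (orange), with filled points at an adjusted p under 0.05. Filled blue points mark Thrsp, Pklr, Acaca, Elovl6 and Pnpla3, and Fabp4 has the only filled orange point.

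Pnpla3 encodes a lipid droplet protein with lipase and acyltransferase activity and had the largest change of the 33 genes (chromosome 15, 84167776 to 84189521 in GRCm38.p6). Its 5 wild-type controls read 6.51, 5.92, 5.99, 5.58 and 6.03, and the 4 arrays with phenobarbital 7.76, 8.74, 8.32 and 7.33. Every treated array was above every control. The rise was 2.03 (SE 0.43, adjusted p = 0.00693, n = 5 and 4) and passed in all 35 alternative settings. In knockout controls Pnpla3 ran from 6.32 over a median of 6.70 to 8.07, and with phenobarbital from 5.94 over 6.89 to 8.25, so both knockout groups spanned the gap between the wild-type groups. The knockout change was 0.13 (SE 0.34, adjusted p = 0.91).

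Thrsp (Spot 14; chromosome 7, 97412933 to 97417550) stood at 11.99, 11.94, 11.56, 11.68 and 11.51 in wild-type controls and at 12.92, 13.22, 13.04 and 12.95 with phenobarbital. The groups were separated, and the rise was 1.30 (SE 0.27, adjusted p = 0.00553). Of its 3 tested probe sets 2 rose, with changes of all 3 from 0.19 to 1.67. In knockout Thrsp ran from 11.24 over a median of 11.55 to 12.60 without and from 11.85 over 12.50 to 13.14 with phenobarbital, and the arrays overlapped. That change of 0.76 (SE 0.21) had an adjusted p = 0.0635, and it passed without knockout control 1 or 3 or knockout phenobarbital array 6 or 7 (adjusted p 0.0173 to 0.0443). Without knockout controls 2, 6 and 7 it was 0.49 (adjusted p = 0.238).

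Pklr (chromosome 3, 89136122 to 89146815) makes pyruvate from phosphoenolpyruvate and so feeds the citrate used for lipogenesis. Wild-type controls read 8.54, 8.61, 8.27, 8.53 and 8.62, and the treated arrays 9.36, 9.55, 9.42 and 9.22. The groups did not overlap, with a rise of 0.87 (SE 0.18, adjusted p = 0.00589), and all 3 tested probe sets rose. In knockout the change was 0.165 (SE 0.14, adjusted p = 0.658), from 7.56, 8.19 and 8.56 (lowest, median and highest) to 8.01, 8.19 and 8.63. Treated wild type was the highest group for Pklr, as it was for Thrsp, Pnpla3, Elovl6 and Fasn. The windows of those other genes lacked the carbohydrate response element letters. Whether these letters bear on expression was not tested.

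Acaca (chromosome 11, 84129635 to 84401651) encodes acetyl-CoA carboxylase 1, which makes malonyl-CoA. In wild-type controls it read 8.70, 9.05, 8.84, 8.82 and 8.39, and with phenobarbital 9.21, 9.35, 9.25 and 9.18. The rise of 0.49 (SE 0.115) had an adjusted p = 0.0156. It was 0.0606 without wild-type phenobarbital array 2 and 0.0882, with a change of 0.24, when the 2 probe sets of the gene were averaged. Only 1 of these passed the filter on dim signals. The knockout groups ran from 9.20 over a median of 9.31 to 9.55 and from 9.01 over 9.37 to 9.60, a change of 0.07 (SE 0.092, adjusted p = 0.806). All but 1 knockout array lay in or above the range of treated wild type.

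Elovl6 (chromosome 3, 129532386 to 129638495) elongates palmitate to stearate. Its wild-type controls were at 9.57, 9.84, 9.96, 9.97 and 9.22 and the treated arrays at 10.60, 11.21, 10.89 and 10.33, again without overlap. The rise was 1.05 (SE 0.24, adjusted p = 0.0116, and 0.0591 without wild-type phenobarbital array 2). Its 2 other tested probe sets had changes from 0.73 up and did not pass. In knockout Elovl6 ran from 9.77 over 10.19 to 10.57 without and from 10.05 over 10.72 to 11.20 with phenobarbital, and the change of 0.46 (SE 0.19) did not pass (adjusted p = 0.245).

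**Figure D2:**
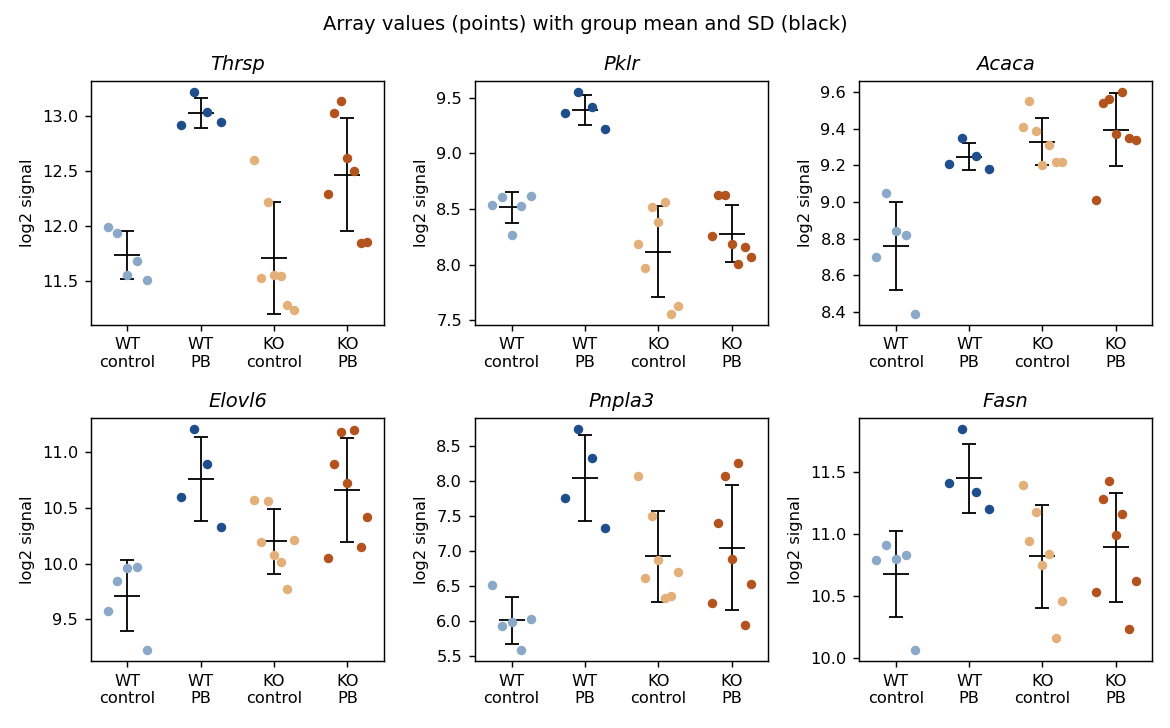
Log2 signal (y axis) of the 5 genes that rose with phenobarbital in wild type, and of Fasn, in each array (points) of the 4 groups, with the group mean and SD in black. In all 6 panels every treated wild-type array lies above every wild-type control, while both knockout groups overlap.

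Fatty acid synthase itself was close to the threshold. Fasn read 10.79, 10.91, 10.80, 10.83 and 10.06 in wild-type controls and 11.41, 11.85, 11.34 and 11.20 with phenobarbital. These groups did not overlap, and the change of 0.77 (SE 0.25) had an adjusted p = 0.0945, or 0.0282 when only wild-type arrays were fitted. The phosphatidate phosphatase gene Lpin1 had 0.67 (SE 0.22, adjusted p = 0.108, and 0.0168 without knockout controls 2, 6 and 7), also without overlap. Cd36, a fatty acid translocase, had a change of 1.31 (SE 0.39, adjusted p = 0.0634). It passed without wild-type control 4 (0.0238) or without knockout control 2, 5 or 6 (0.0346 to 0.0456), and 3 of 3 probe sets had positive changes.

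Lipoprotein lipase (Lpl) had a negative change of -0.62 (SE 0.39, adjusted p = 0.516), and its second probe set had -0.77. Fabp4, a fatty acid-binding protein gene, had 0.03 (SE 0.30).

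Changes of the other genes in wild type ran from -0.21 to 0.34 and did not pass. Those of Srebf1, Mlxipl and Pparg, which encode the transcription factors SREBP-1c, ChREBP and PPAR gamma, were -0.04 (SE 0.21), 0.16 (SE 0.215) and 0.065 (SE 0.125). Among the synthesis genes, changes were 0.22 for the mitochondrial citrate carrier Slc25a1, 0.105 for ATP citrate lyase Acly, -0.08 for acetyl-CoA synthetase Acss2, 0.34 for acetyl-CoA carboxylase 2, Acacb, and 0.305 for malic enzyme Me1. The 3 tested probe sets of Acss2 differed, with changes from -0.08 to 0.75, 1 positive and 2 negative, and 0 were called. Among the elongases and desaturases, they were -0.09 for Elovl2, 0.03 for Elovl5, 0.15 for Scd1, 0.13 for Fads1 and -0.21 for Fads2. Triglyceride assembly genes other than Lpin1 ranged from -0.16 for Agpat2 to 0.27 for Gpam, the first acyltransferase of the pathway. The droplet coat genes Plin2, Plin4 and Plin5 had 0.18, 0.19 and -0.07. Without knockout controls 2, 6 and 7, Plin4 (adjusted p = 0.0342) and Cd36 (0.00987) passed too.

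In knockout liver phenobarbital changed 1 of the 33 genes: Fabp4, a fatty acid-binding protein of adipocytes and macrophages, fell. Among all genes 2.05% changed, 1.17% higher and 0.882% lower (162 and 122 genes, or 214 and 103 after quantile normalization), so 1 of 33 (3.03%) is close to the background. The median change was -0.00399, against 0.00564 over all genes, and 8 of the 33 had an unadjusted p under 0.05 (24.2%, against 14.7% of all genes). Fabp4 ran from 7.73 over a median of 8.93 to 9.91 in knockout controls and from 7.41 over 7.87 to 8.12 with phenobarbital. The groups overlapped in the 2 lowest controls, and the fall was -0.96 (SE 0.24, adjusted p = 0.0372). It was -0.46 (adjusted p = 0.245) without knockout controls 1, 4 and 7, which carried the Adipoq signal and read 8.99, 9.91 and 9.39 for Fabp4. These were the highest Fabp4 values of the knockout controls, all above the median of 8.93, so leaving them out had to shrink the fall. The part of adipocyte RNA in this change was not tested. The call also ended without knockout control 1, 4, 6 or 7 or knockout phenobarbital array 1, 2, 3, 5 or 6 (adjusted p 0.0531 to 0.0818). With only knockout arrays fitted the adjusted p was 0.157.

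Largest among the knockout changes that did not pass were those of Cd36 (0.90, SE 0.31, adjusted p = 0.148), Thrsp, Lpl (0.52, SE 0.31, adjusted p = 0.477) and Me1 (0.515, SE 0.18, adjusted p = 0.159). Of the 3 tested probe sets of Cd36, 1 was called, with changes of all 3 from 0.90 to 1.04. Me1 makes cytosolic NADPH, and its change passed without knockout control 3 (0.0488) but was 0.14 (adjusted p = 0.638) without controls 2, 6 and 7. Lpl encodes lipoprotein lipase. Without knockout controls 2, 6 and 7, Cd36 had 1.47 (adjusted p = 0.00383) and Lpl 1.12 (0.0294). Acss2 had -0.41 (SE 0.16, adjusted p = 0.224) and passed without knockout control 6 (0.0344). Without controls 2, 6 and 7, Acss2 had -0.58 (0.0311), Elovl2 -0.42 (0.00701, from -0.205), Fads1 -0.33 (0.0133, from -0.15) and Plin4 -0.28 (0.00249, from -0.18), and all 4 passed. The number of genes called was 6 without knockout controls 2, 6 and 7, with 2 higher and 4 lower (6.06% and 12.1%, against 2.58% and 3.10% of all genes in that fit). The number was 0 without controls 1, 4 and 7, where 1.62% of all genes passed. Across fits without 1 array it was 0 to 3, with 3 without knockout control 3. The same fits called 157 to 408 of all genes.

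The difference between the phenobarbital effects in knockout and wild type was tested directly as an interaction. Of the 33 genes 1 passed, Plin4, and 24 differences were negative, that is, a smaller rise or larger fall in knockout. The median was -0.187, against -0.00266 over all genes, of which 0.875% passed, 0.354% positive and 0.521% negative. For the 5 genes that rose in wild type, the differences were -1.90 for Pnpla3 (SE 0.55, adjusted p = 0.133), -0.71 for Pklr (SE 0.23, 0.203), -0.42 for Acaca (SE 0.15, 0.25), -0.59 for Elovl6 (SE 0.30, 0.536) and -0.54 for Thrsp (SE 0.34, 0.666). None of these 5 passed, so a different response by genotype is not shown for them. Lpin1 had -0.97 (SE 0.29, adjusted p = 0.141) and passed without knockout control 6 (0.0478). Without knockout controls 2, 6 and 7, 5 of the 33 passed (15.2%, against 1.97% of all genes in that fit). They were Plin4, Pklr (-1.004, adjusted p = 0.00315), Lpin1 (-1.15, 0.0105), Fads1 (-0.46, 0.0357) and, with a positive difference of 1.74, Lpl (0.0385).

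Plin4, a perilipin, was dim throughout, close to the filter level of 4.56. It read 4.73, 4.76, 4.78, 4.82 and 4.77 in wild-type controls and 5.07, 4.90, 4.99 and 4.90 with phenobarbital. In knockout it ran from 4.61 over 4.90 to 4.94 without and from 4.50 over 4.65 to 4.78 with phenobarbital. The wild-type change was 0.19 (SE 0.071) and the knockout change -0.18 (SE 0.056), neither past the threshold (adjusted p = 0.151 and 0.101), and their difference -0.38 (SE 0.09, adjusted p = 0.0481). Without knockout control 6 or 7 the knockout change passed (0.0456 and 0.0312). The call on the difference ended without any 1 array other than knockout controls 6 and 7 and knockout phenobarbital array 6. Over all alternatives the adjusted p was 0.00136 to 0.149.

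Within the treated knockout group, several genes of the list shared their 3 highest arrays. Pnpla3 was highest in replicates 2, 3 and 5, at 7.40, 8.06 and 8.25, and 5.94 to 6.89 in the others. The same 3 arrays were the highest for Acaca, Acacb, Fasn, Elovl5, Elovl6, Gpam and Plin2, 7 of the 32 other tested genes (21.9%), against 1.82% of all genes. The comparison was chosen after these values were seen. Summed macrophage markers of these 3 arrays were 62.02, 70.32 and 74.28, which covers the range of the group. In knockout controls the arrays highest for Pnpla3 were replicates 1, 3 and 4, shared by 5 of 32 genes (Srebf1, Thrsp, Fads1, Agpat2 and Plin5; 15.6%, against 5.06% of all genes).

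**Figure D3:**
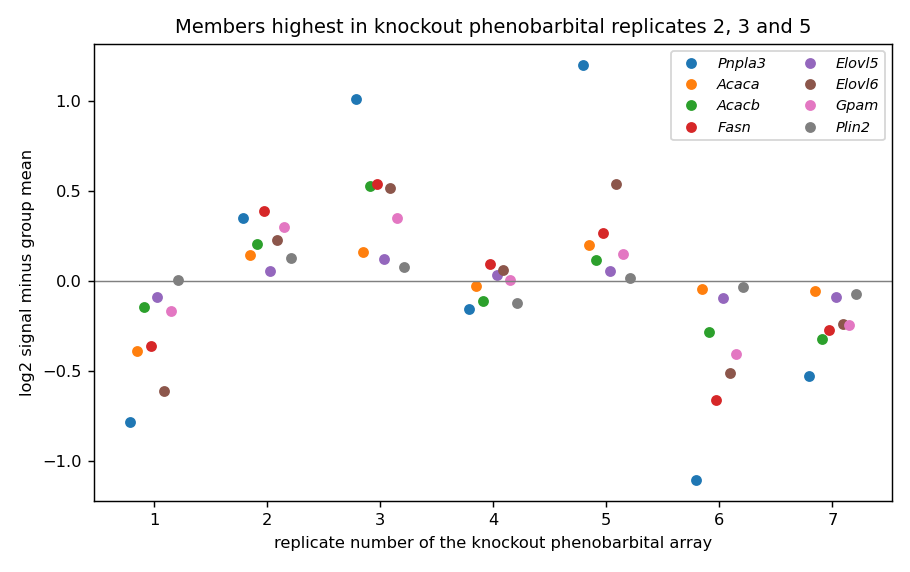
Log2 signal minus the group mean (y axis) for Pnpla3 and 7 other genes in the 7 knockout phenobarbital arrays (x axis, replicate number). The 7 were picked for sharing the highest arrays of Pnpla3, replicates 2, 3 and 5. Points above 0 there, for all 8 genes, largely follow from that choice. Pnpla3 spans the widest range, from 5.94 to 8.25 on the original scale.

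Without phenobarbital, knockout and wild-type livers differed most in the uptake genes. Cd36, Fabp4 and Lpl were all higher in knockout, with Acaca, Acly, Scd1 and Elovl5. Me1, Mlxipl, Agpat3 and Dgat1 were lower. Thus 7 of the 33 genes were higher and 4 lower, 33.3% of them, against 14.8% higher, 10.1% lower and 25.0% in either direction among all genes. The median difference was 0.0344, against -0.00473 over all genes. Without knockout controls 2, 6 and 7 the count was 7 higher and 0 lower (21.2%, against 11.1% of all genes in that fit). Without wild-type control 1 it was 7 in all, and fits without 1 array called 2667 to 3903 of all genes.

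**Figure D4:**
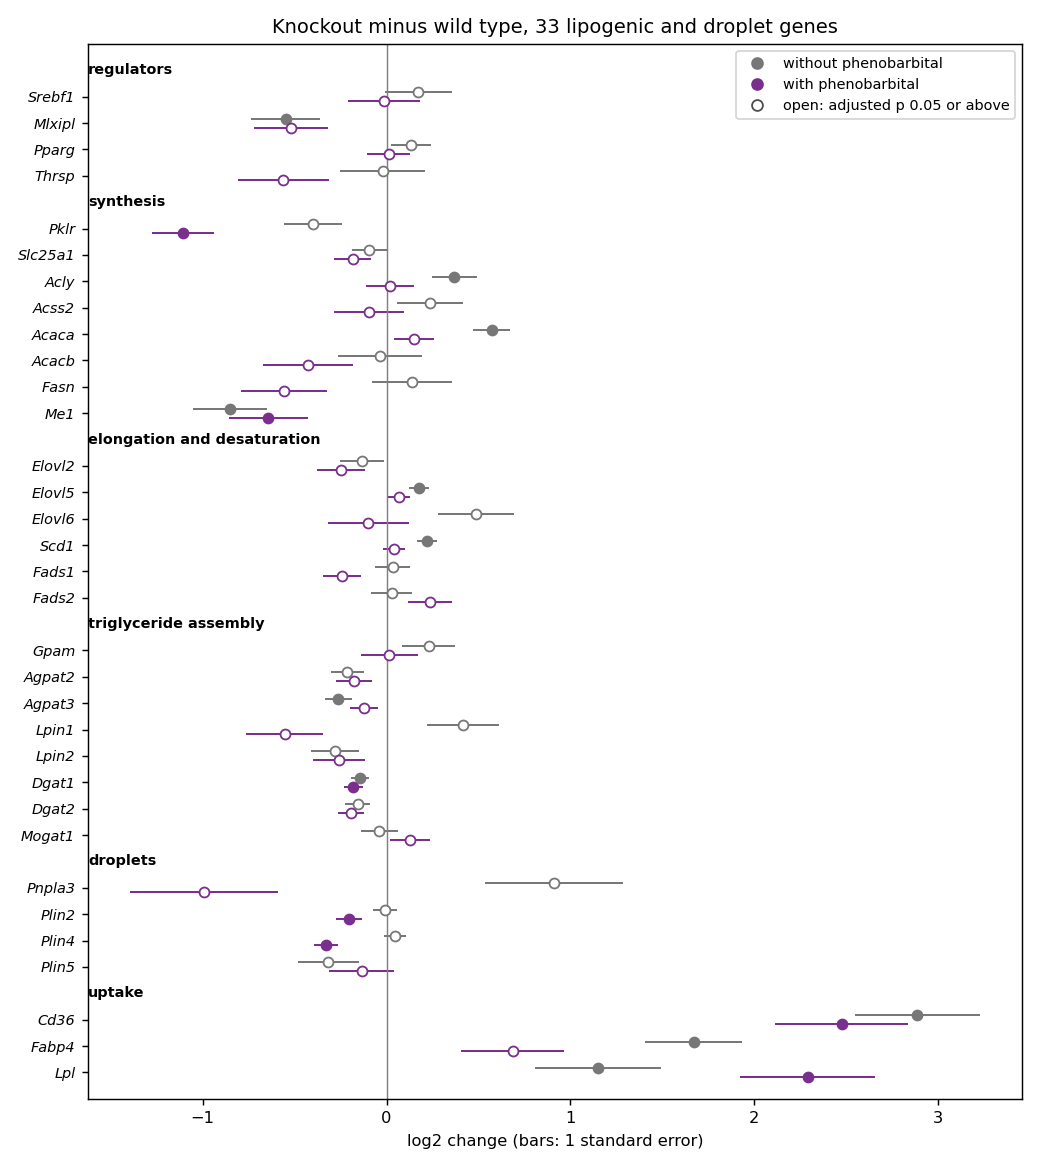
Knockout minus wild type in log2 (x axis, bars 1 standard error) of 33 genes by step, without (grey) and with (purple) phenobarbital, with filled points at an adjusted p under 0.05. Cd36 lies farthest right, at 2.89 and 2.48, and Pklr with phenobarbital farthest left, at -1.11.

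Cd36 (chromosome 5, 17781690 to 17888959) read 6.68, 6.37, 6.26, 7.48 and 5.79 in wild-type controls and ran from 8.17 over a median of 9.42 to 10.53 in knockout controls. The groups were fully separated, with a difference of 2.89 (SE 0.34, adjusted p = 3.81e-06, 7.41-fold), and 3 of 3 probe sets were higher. With phenobarbital it was 7.6, 8.39, 8.05 and 7.28 in wild type and 9.97 to 10.70, with a median of 10.19, in knockout. That difference was 2.48 (SE 0.36, adjusted p = 5.9e-05), and both calls held in all 35 alternatives.

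Fabp4 (chromosome 3, 10204342 to 10208616) was at 7.13, 7.02, 7.20, 7.21 and 6.91 in wild-type controls, below all 7 knockout controls. The difference was 1.67 (SE 0.26, adjusted p = 0.000112), 0.88 with the mean of its 4 probe sets, and 3 of 3 tested ones were higher. With phenobarbital wild type read 7.03, 7.46, 6.94 and 7.06, and the difference of 0.69 (SE 0.28) had an adjusted p = 0.0877, or 0.0112 without knockout controls 1, 4 and 7. It passed also without knockout control 4 (0.0402) or 5 (0.0498).

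Lpl (chromosome 8, 68880555 to 68906932) read 9.51, 10.51, 10.92, 11.17 and 10.06 in wild-type controls and ran from 10.85 over 11.15 to 12.50 in knockout controls, with overlap. The difference was 1.15 (SE 0.34, adjusted p = 0.0187). Replicates 2, 6 and 7 were the 3 highest, at 12.50, 12.44 and 12.21, and without them it was 0.555 (adjusted p = 0.283). The call also ended without wild-type control 1 (0.0637). With phenobarbital the 4 wild-type arrays were at 9.94, 9.75, 9.18 and 10.40 and the knockout arrays at 11.14 to 12.53 (median 12.16), a separated difference of 2.29 (SE 0.37, adjusted p = 0.000156) that held in all 35 alternatives.

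Macrophages, adipocytes and endothelium also express uptake genes, and their part in these differences was not tested beyond the values given here. Of the 8 macrophage markers, 6 were higher in knockout without and 8 with phenobarbital. Of 6 endothelial markers 5 and 4 were, and of 6 stellate cell markers 4 and 4. Of 5 measured markers of recruited and lipid-associated macrophages, 1 was higher without phenobarbital and 0 with it by limma (unadjusted p under 0.05 for 2 and 1), with median differences of 0.283 and 0.126. Ccr2, a receptor of recruited monocytes and the marker of that list with the largest difference, was 4.47 to 4.54 in wild-type controls and 4.51 to 4.64 in treated wild type, against 7.43 to 8.55 in knockout controls 1, 2, 6 and 7 and 4.90 to 4.97 in replicates 3, 4 and 5. In knockout controls 3 and 5, with Ccr2 at 4.90 and 4.91 and Adipoq at 3.81 and 3.03, Cd36 read 8.79 and 8.17 and Fabp4 7.95 and 7.73, above every wild-type control. The macrophage sums of these 2 arrays, 62.26 and 63.23, and their Ccr2 levels were also above every wild-type control. So were their endothelial sums, 41.32 and 41.50 against 36.72 to 38.52, and stellate cell sums, 45.71 and 43.74 against 39.36 to 40.52. Lpl, at 10.91 and 10.85 there, was within the wild-type range. Treated knockout arrays 2 and 6 had the lowest macrophage sums of their group, 62.02 and 63.61. Both sums were above the 54.11 to 56.79 of treated wild type. Cd36 at 10.03 and 10.19 and Lpl at 11.84 and 12.11 were also above all treated wild-type arrays. Endothelial sums were 39.88 and 39.50 against 36.98 to 39.52, and stellate cell sums 42.23 and 43.01 against 38.70 to 40.22.

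**Figure D5:**
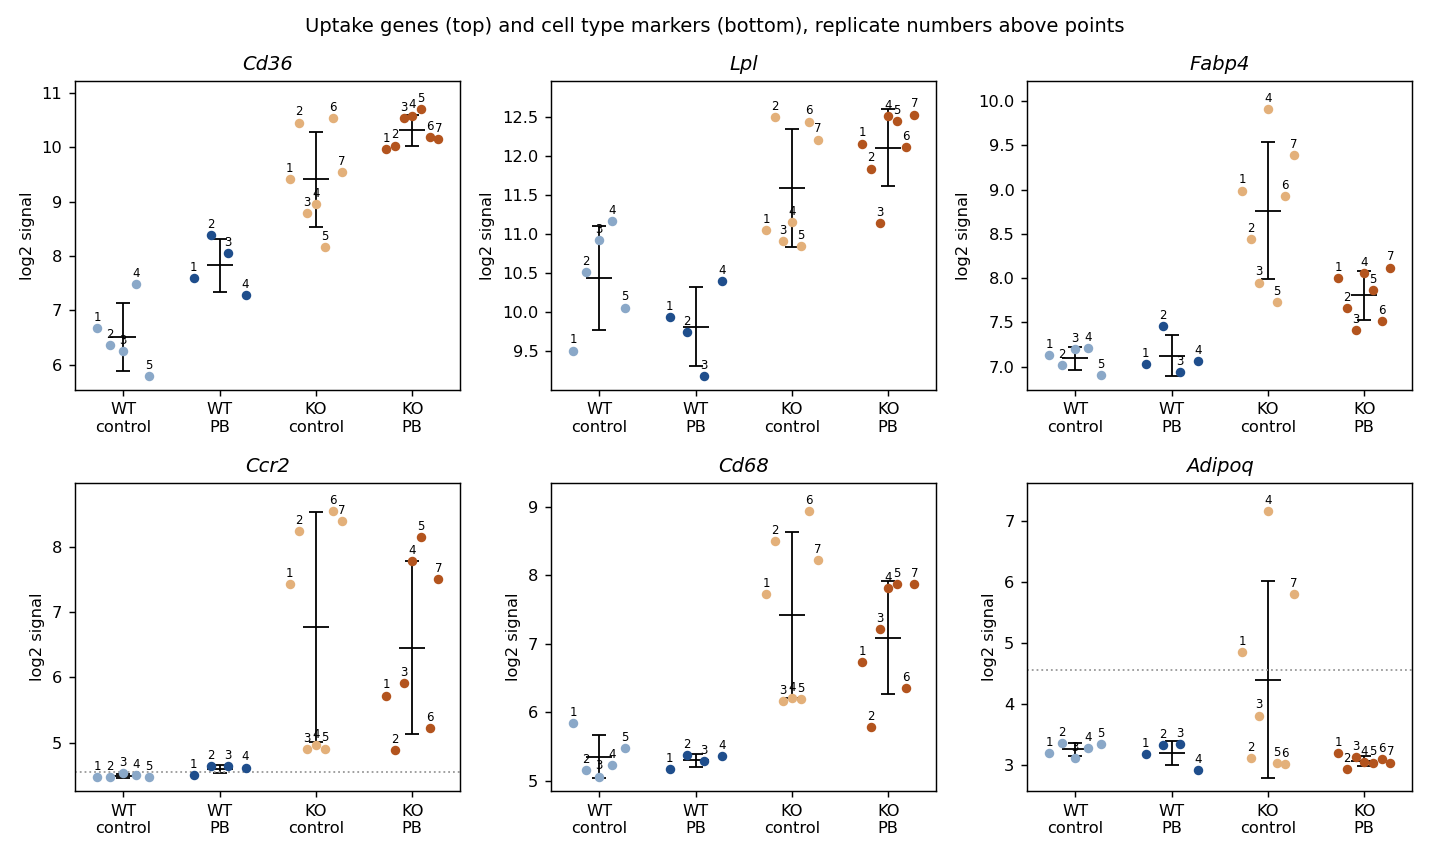
Log2 signal (y axis) of Cd36, Lpl and Fabp4 (top) and of the macrophage markers Ccr2 and Cd68 and the adipocyte marker Adipoq (bottom) in each array, numbered by replicate, with group mean and SD in black and the filter level dotted. Adipoq exceeds that level in knockout controls 1, 4 and 7, and among the knockout controls Ccr2 and Cd68 are highest in replicates 1, 2, 6 and 7, a range that some treated knockout arrays share.

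Among the synthesis genes of untreated liver, Acaca was separated between genotypes, at 8.39 to 9.05 in wild type and 9.20 to 9.55 in knockout. The difference was 0.57 (SE 0.10, adjusted p = 0.000365). With the mean of its 2 probe sets, of which 1 was tested, it was 0.16 (adjusted p = 0.0824). This comparison and the phenobarbital effect in wild type share the 5 wild-type controls. Acly read 12.03, 12.05, 12.01, 11.82 and 12.18 in wild-type controls and 12.12, 12.41 and 12.73 (lowest, median, highest) in knockout controls. Its difference of 0.37 (SE 0.12, adjusted p = 0.031) passed in 3 of 4 probe sets, while the fourth had -0.60. The Acly call ended with the mean of its 6 probe sets, of which 4 were tested (0.16, adjusted p = 0.295). It ended too without knockout control 1 or 2 or wild-type control 1, 2, 3 or 4 (0.051 to 0.0854).

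Me1 was lower in knockout. It read 11.75, 11.42, 11.71, 11.71 and 11.74 in wild-type controls, against 10.13 to 11.57 with a median of 10.96 in knockout controls (-0.85, SE 0.20, adjusted p = 0.00421). The arrays overlapped in 1 knockout control, and without controls 2, 6 and 7 the difference was -0.47 (adjusted p = 0.0543). With phenobarbital it was 11.82, 12.13, 12.02 and 11.91 in wild type, above all knockout arrays at 10.81 to 11.74 (-0.64, SE 0.21, adjusted p = 0.0379). That call ended without knockout phenobarbital array 4, 5 or 7 or any 1 wild-type phenobarbital array (0.0587 to 0.0968).

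Mlxipl, the ChREBP gene, read 11.09, 10.82, 10.82, 10.93 and 11.13 in wild-type controls and ran from 9.59 over 10.65 to 10.84 in knockout controls. The difference of -0.55 (SE 0.19) had an adjusted p = 0.037. It was -0.19 (adjusted p = 0.441) without knockout controls 2, 6 and 7, which read 10.02, 10.16 and 9.59. The call ended too without any 1 of these 3 or of wild-type controls 1, 2, 4 and 5 (0.0502 to 0.0815). With phenobarbital the arrays did not overlap, and the difference of -0.52 (SE 0.20) had an adjusted p = 0.0715, and 0.0274 without knockout control 7 or 0.0459 without knockout phenobarbital array 2.

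The other genes called without phenobarbital were Scd1, Elovl5, Agpat3 and Dgat1. Scd1, the delta-9 desaturase, was at 13.95, 13.96, 14.14, 14.15 and 13.97 in wild-type controls and at 14.12 to 14.37 (median 14.29) in knockout controls (0.22, SE 0.054, adjusted p = 0.00631), close to the highest array value of 14.92. Its second probe set had a larger difference of 0.80 and passed too. Elovl5, a fatty acid elongase, read 13.26, 13.15, 13.30, 13.38 and 13.28, against 13.30 to 13.58 (median 13.49; 0.18, SE 0.055, adjusted p = 0.0249, and 0.0797 without wild-type control 2). The acyltransferase gene Agpat3 was at 9.51, 9.43, 9.25, 9.51 and 9.50, against 8.91 to 9.30 with a median of 9.24 (-0.26, SE 0.072, adjusted p = 0.0122, and 0.0884 without knockout controls 2, 6 and 7). Dgat1, which completes triglyceride, read 7.94, 7.88, 8.01, 7.98 and 7.96, against 7.68 to 7.93 with a median of 7.83 (-0.15, SE 0.049, adjusted p = 0.0326). The Dgat1 call ended without knockout control 1, 2 or 7 or wild-type control 1, 3, 4 or 5 (0.0506 to 0.0794), and the difference was -0.093 (0.269) without knockout controls 2, 6 and 7. For these 4 genes the arrays of the genotypes overlapped.

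Among genes that did not pass without phenobarbital, the differences of Pnpla3 (0.91, SE 0.37, adjusted p = 0.0778) and Elovl6 (0.49, SE 0.21, 0.0877) were the largest positive ones. Lpin1 had 0.42 (0.122) and passed without knockout control 6 (0.041). It had 0.60 (0.0216) without controls 2, 6 and 7 and 0.16 (0.585) without 1, 4 and 7. Lpin2, another phosphatidate phosphatase, had -0.28 (0.119) and passed without wild-type control 5 (0.0407). Of its 4 tested probe sets 1 was called. Dgat2 had -0.16 (0.0835), which passed without knockout control 5 (0.0407) and was -0.066 (0.59) without controls 2, 6 and 7.

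With phenobarbital in both genotypes, 2 of the 33 genes were higher in knockout, Cd36 and Lpl, and 5 were lower: Pklr, Plin4, Me1, Plin2 and Dgat1. Among all genes 11.9% were higher, 8.12% lower and 20.0% in either direction, so the count of 7 (21.2%) is close to the background. The median difference of the 33 genes was -0.177, against 0.00237, and 22 of 33 were negative. Arrays did not overlap for 9 of the 33, against 18.6% of all genes. Without wild-type phenobarbital array 4 the count was 4, and it was 12 (36.4%) without knockout controls 2, 6 and 7, where 29.1% of all genes passed, and with only these 2 groups fitted, where 25.1% did. Without these 3 controls, Mlxipl (adjusted p = 0.00586), Lpin1 (0.0102), Fads1 (0.02), Dgat2 (0.0287) and Elovl2 (0.0346) were lower in knockout as well.

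Pklr had the largest negative difference, -1.11 (SE 0.17, adjusted p = 8.31e-05), with all 3 probe sets lower and no overlap between 9.22 to 9.55 in wild type and 8.01 to 8.63 in knockout. Without phenobarbital its difference was -0.40 (SE 0.16, adjusted p = 0.0649), which passed without knockout control 3, 4 or 5 (0.026 to 0.0451) and was -0.10 without controls 2, 6 and 7. Plin4 was lower by the test (-0.33, SE 0.066, adjusted p = 0.00138) in every fit that included it, at signals near the filter level. Plin2, which coats hepatocyte droplets, was at 12.04, 12.07, 12.14 and 12.04 in treated wild type and 11.74 to 11.99 (median 11.87) in treated knockout, a separated difference of -0.21 (SE 0.07, adjusted p = 0.042). The Plin2 call ended without knockout phenobarbital array 1, 4, 5, 6 or 7 or any 1 wild-type phenobarbital array (0.0521 to 0.127). Dgat1 was at 7.95, 7.92, 7.92 and 7.99 against 7.69 to 7.85 (-0.18, SE 0.052, adjusted p = 0.0186, and 0.0642 without wild-type phenobarbital array 4).

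Several genes that did not pass under phenobarbital had sizeable differences: -0.99 for Pnpla3 (SE 0.40, adjusted p = 0.0835), -0.56 for Thrsp (SE 0.25, 0.113), -0.56 for Fasn (SE 0.23, 0.0936) and -0.55 for Lpin1 (SE 0.21, 0.0657). Pnpla3 passed without knockout phenobarbital array 3 (0.0424) or 5 (0.0359), and Lpin1 without knockout control 6 (0.0382) or 7 (0.0449). Dgat2, the other enzyme of the final triglyceride step, had -0.19 (SE 0.071, 0.0594). It passed without knockout control 7 or knockout phenobarbital array 2 or 3 (0.0282 to 0.0487). When every probe set was tested, others of genes that did not pass were called lower. They were 1 of 3 for Thrsp and Elovl6 each, 1 of 2 for Lpin1 and Fads1 each and 2 of 4 for Lpin2. Differences reached -0.92 for Elovl6 and -0.74 for Fads1, and 1 of 2 probe sets of Scd1 was called higher.

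The Cide genes, whose proteins enlarge droplets, gave little signal. Cidec stayed at 3.10 to 3.71 in all arrays and was not tested. Cidea was at 3.36 to 3.85 in 20 arrays and at 4.66, 6.78 and 6.48 in knockout controls 1, 4 and 7, the same 3 arrays in which Adipoq was above the filter level. It exceeded that level in these 3 arrays only and was not tested. Mogat1, a monoacylglycerol acyltransferase, and Pparg were dim but tested, with all arrays of Mogat1 between 4.61 and 5.24 and of Pparg between 4.84 and 5.53, and neither passed in any comparison.

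Genes around this pathway were read from a list of 91 regulators, enzymes, droplet and transport genes, of which 80 were measured and 78 tested. In wild type 7 rose and 3 fell with phenobarbital (12.8%, against 3.85% of all genes and 15.2% of the 33 genes above). The acyl-CoA thioesterase gene Acot1 (-1.10, SE 0.27, adjusted p = 0.0193) and the insulin receptor substrate Irs2 (-0.96, SE 0.20, 0.00593) fell. Endothelial lipase Lipg (0.57, SE 0.15, 0.042) and ketohexokinase Khk (0.52, SE 0.14, 0.0421), which phosphorylates fructose, rose. The Lipg mean of 4.46 in controls was below the mean filter level of 4.56. Lipg exceeded the filter level in 5 of the 23 arrays, where 4 were needed for a test, so its call among the 7 rests on dim signals. In knockout 4 rose and 1 fell (6.41%, against 2.05% of all genes and 3.03% of the 33). The acyl-CoA synthetase Acsl3 fell (-0.59, SE 0.13, 0.0176). The acyltransferase Gpat3 (0.43, 0.0257), transketolase Tkt (0.30, 0.00252) and the elongase Elovl1 (0.24, 0.0344) were among those that rose. No gene of this list passed the interaction test by limma, where 15 of 78 had an unadjusted p under 0.05 (19.2%, against 10.3% of all genes).

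Between genotypes, 10 of the 78 were higher and 17 lower without phenobarbital, and 12 and 19 with it. These were 34.6% and 39.7% of the 78, against 25.0% and 20.0% of all genes and 33.3% and 21.2% of the 33. The elongase Elovl3 had the largest difference in both, -3.35 (SE 0.72, adjusted p = 0.00217) and -2.57 (SE 0.77, 0.022). Scd2, a desaturase paralog of Scd1, was higher without phenobarbital (2.34, SE 0.61, 0.00839). Nr1i3, which encodes the constitutive androstane receptor, was lower in both comparisons (-1.54, SE 0.26, 0.000242, and -2.24, SE 0.28, 7.19e-06), and Acot1 was lower without phenobarbital (-1.05, SE 0.23, 0.00292). With phenobarbital the fatty acid-binding protein genes Fabp2 (-1.25, SE 0.23, 0.000738) and Fabp5 (-1.07, SE 0.26, 0.00631) were lower. Elovl3 varied widely within knockout, with SDs of 1.64 in both groups against 0.30 and 0.061 in wild type.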

How the data were processed

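Values were the authors' deposited log2 signals per probe set, computed with RMA in the package affy, per the submitters' processing notes; neither tool versions nor the set of arrays normalized jointly is given in the sources used here. Of 45037 probe sets, 34945 had exactly 1 gene in the platform annotation, 932 several and 9160 none. Symbols were updated through Entrez identifiers (GRCm38.p6 gene table) for 34741. A gene was tested if its probe set exceeded the 40th percentile of the array in at least 4 arrays.

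Limma 3.58.1 (R 4.3.3; lmFit and eBayes) modelled the 4 group means over the 23 arrays, with 5 two-sided contrasts and Benjamini-Hochberg adjustment over 13826 genes, called under 0.05. The code was tested on simulated data. Filters, normalization, probe set choice, variance prior, array weights, replicate block, the arrays in the fit and each array in turn were varied. Tables and plots used Python 3.11.15, pandas 2.3.3, numpy 2.4.6 and matplotlib 3.10.9. Motifs were searched on both strands of RefSeq windows of 250 bases.

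Every listed gene was named, with values per array where it passed a test. Of the neighbouring genes, up to 4 per comparison with the largest change were named. The genes, lists and rules were chosen with earlier results of these data known. Leaving out knockout controls 1, 4 and 7 was chosen after seeing the data. Knockout controls 2, 6 and 7 have the lowest array weights in these same data, so leaving them out is no independent check either.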

Additional observations from a re-analysis of the deposited data

Results flagged for a closer look

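In 7 of 140 gene and group combinations, 1 array lay far from the others of its group by Dixon's test, which chance gives in about 1 of 20. Pklr was low in wild-type control 3 (8.27, others 8.53 to 8.62), Fasn in wild-type control 5 (10.06, others 10.79 to 10.91) and Me1 in wild-type control 2 (11.42, others 11.71 to 11.75). Fads2 was high in wild-type control 4 (10.30, others 9.94 to 10.03), and Gpam in wild-type phenobarbital array 2 (12.83, others 12.32 to 12.38). Acss2 was low in knockout control 6 (10.55, others 11.35 to 11.80), and Plin5 in knockout control 7 (8.0, others 8.89 to 9.42).

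The phenobarbital effect on Plin4 differed between genotypes by -0.38 in the test of the difference itself, at a signal near the filter level. Cidea, which entered no test, exceeded the filter level in 3 arrays, knockout controls 1, 4 and 7.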

How the results depend on the processing

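Of 25 calls of a gene in a comparison, 10 held under every alternative that gave a value (up to 35), 34 further ones passed only under an alternative, and 0 of the 59 followed reversed direction. Without 1 array at a time, the genes called numbered 3 to 6 of the 33 for phenobarbital in wild type, 0 to 3 in knockout, 7 to 13 between genotypes without and 4 to 10 with phenobarbital, and 0 to 2 for the interaction. Over all genes the same ranges were 315 to 664, 157 to 408, 2667 to 3903, 1798 to 3287 and 63 to 146, from 532, 284, 3453, 2772 and 121 as reported. Array weights gave 9 of the 33 for phenobarbital in wild type, 3 in knockout, 14 between genotypes with phenobarbital and 4 for the interaction, with 1503, 461, 4574 and 323 of all genes. Fitting only the compared groups gave 8 in wild type, 0 in knockout, 7 and 12 between genotypes, with 929, 100 and 2078 of all genes in the first 3. Without knockout controls 2, 6 and 7 the counts were 8, 6, 7, 12 and 5, with 810, 786, 1535 and 273 of all genes except between genotypes with phenobarbital. Without knockout controls 1, 4 and 7 they were 0 in knockout and 0 for the interaction, with 224 and 98 of all genes. The interaction count was 0 also with no filter, with the filter at the 60th percentile (Plin4 was then not tested) and with a trended and robust prior. The causes of these shifts were not tested.

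Replicate numbers were not treated as pairs in the reported fit. Correlations of same-numbered deviations ran from -0.695 to 0.628. Differently numbered arrays were not compared, so these values cannot settle whether the numbers pair the samples. With the replicate block, 2 genes of the 33 were called for phenobarbital in knockout, 4 between genotypes with phenobarbital and 0 for the interaction, with 1967 and 1606 of all genes between genotypes without and with it. Plin4, Pparg and Mogat1 were close to the level of dim probe sets, which limits what their signals can show.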
